A study of Rattus norvegicus with 6 samples.

Results

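Hox genes encode homeodomain transcription factors that lie in 4 clusters, named a, b, c and d, and are numbered 1 to 13 by paralogue group, the set of genes in the same position of each cluster. All array probe sets that carried exactly 1 gene symbol of the form Hox, a cluster letter and a number were taken. They gave 22 genes among 14506 genes with such a probe set, each with 1 probe set. The GRCr8 rat gene table lists 39 Hox genes, and the other 17, among them Hoxa3, Hoxb1 and Hoxb5, were not analysed here. The genes measured were 5 of cluster A, 7 of cluster B, 4 of cluster C and 6 of cluster D. They fall into 5 anterior genes (paralogue groups 1 to 3), 9 central genes (groups 4 to 8) and 8 posterior genes (groups 9 to 13).

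Low-numbered Hox genes are active towards the head end of the embryo and high-numbered ones towards the tail, so the set of Hox genes a cell keeps active records where along the body axis it arose. Cranial neural crest that fills the more posterior pharyngeal arches carries a code of low-numbered genes, and the carotid body forms from third-arch tissue and needs Hoxa3 in the mouse. Hox proteins bind DNA together with cofactors of the TALE class (Pbx, Meis and Pknox), the Polycomb proteins keep silent clusters shut, and retinoic acid switches on the low-numbered genes.

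The arrays measured total RNA of neurospheres, floating cell clusters grown for 10 days from dispersed carotid body cells of adult rats. Of the 6 arrays, 3 were labelled undifferentiated, from complete neural crest medium in normal oxygen with the growth factors EGF, FGF and IGF-1 and the peptide ET-1 as mitogens. The other 3 were labelled differentiated, from neural crest medium with no mitogens at 3% oxygen, so mitogens and oxygen changed together and cannot be told apart. Both groups were grown in ultra-low plates, and the labels state neither strain nor genotype. The question set for the series was how neuron-rich spheres differ from spheres rich in undifferentiated cells.

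Values are the authors' deposited values per probe set, taken as log2, and all differences below are labelled differentiated minus labelled undifferentiated. Pearson correlations of arrays within a group were 0.9857 to 0.9927 over all probe sets. Over all genes the median difference was 0.06, and 29.5% passed a limma adjusted p of 0.05. Th, which makes the precursor of dopamine and is the defining marker of the organ's oxygen-sensing glomus cells, was lower by 2.86 in the arrays labelled differentiated (limma adjusted p = 5.09e-07). That goes against the labels, so each group is called by its label only.

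Among the 22 Hox genes, Hoxa5, Hoxa2 and Hoxb3 rose in the arrays labelled differentiated, and no Hox gene fell. The rises were 2.73-fold for Hoxa5, 1.88-fold for Hoxa2 and 1.38-fold for Hoxb3. All 3 belong to paralogue groups 2 to 5, a range set after the calls were seen. In these groups 2, 2, 4 and 2 genes were measured. The Hox share that rose, 13.6%, was near that of all genes, of which 14.7% rose and 14.9% fell. With limma, 4 Hox genes had an unadjusted p under 0.05, the 3 that rose and Hoxb4, and each of these was higher in the arrays labelled differentiated. That is 18.2% of the 22, against 38% of all genes at the same threshold. The median difference of the 22 genes was 0.15, against 0.06 over all genes, and 0.09 against 0.03 with quantile normalization. The median level of the 22 genes on single arrays had an SD of 0.15 within groups, which is not the spread of the median difference. When each array was left out in turn, the median difference of the 22 genes ran from 0.10 to 0.19. Whether it differs from that of all genes was not tested.

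**Figure D1:**
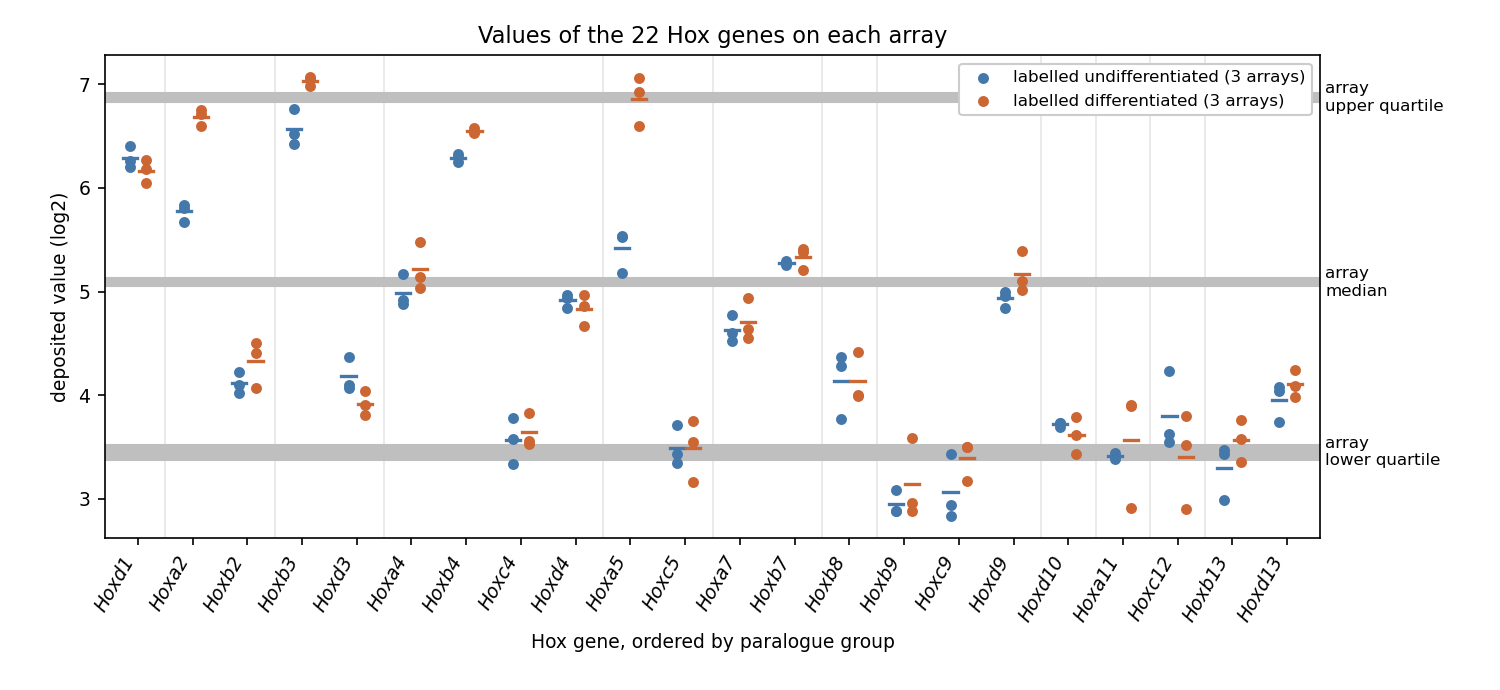
Deposited log2 value (vertical axis) of each Hox gene on each array, ordered by paralogue group along the horizontal axis. Points are arrays, 3 per group, short lines are group means, and grey bands span the quartiles of the 6 arrays. Hoxa5, Hoxa2 and Hoxb3 lie higher in the arrays labelled differentiated with no overlap between groups, while the posterior genes lie mostly below the array median.

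Hoxa5, a central gene known for its part in forming the lung and the cervical and upper thoracic skeleton, had the largest difference of the 22 genes. Its values were 5.53, 5.54 and 5.18 in the arrays labelled undifferentiated and 6.60, 6.93 and 7.06 in those labelled differentiated. The groups did not overlap, and the upper 2 of the arrays labelled differentiated passed their arrays' upper quartile. The difference was 1.45 ± 0.15 (SE, limma adjusted p = 3.21e-05), with a 95% confidence interval of 1.11 to 1.78, and 99.1% of all genes had a smaller signed difference. The annotated span of Hoxa5 overlaps those of Hoxa3 and of the long non-coding RNA Hoxaas3 in the GRCr8 gene table. Signal from overlapping transcripts may therefore be shared, and the Hoxa5 value is less certain for that reason.

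Hoxa2, the anterior gene that sets the identity of the second pharyngeal arch, came next. It read 5.84, 5.81 and 5.67 in the arrays labelled undifferentiated and 6.60, 6.71 and 6.75 in those labelled differentiated. All 6 values lay between the array median and upper quartile, and the groups were 1 tight block each, with an SD of 0.09 and 0.08 (n = 3). The difference was 0.91 ± 0.11 (SE, limma adjusted p = 8.46e-05). No other gene's span overlaps that of Hoxa2 in the gene table.

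Hoxb3, the anterior gene that acts beside Hoxa3 in the third arch and hindbrain, rose less. Its values were 6.42, 6.76 and 6.52 in the arrays labelled undifferentiated and 7.05, 7.07 and 6.98 in those labelled differentiated. The latter 3 all lay above their arrays' upper quartile and the former 3 all below theirs. The annotated span of Hoxb3 overlaps that of LOC102550580 in the GRCr8 gene table, so its signal may be shared as well. The difference was 0.47 ± 0.11 (SE, limma adjusted p = 0.00938), and a two-sample test without moderation gave adjusted p = 0.056, at which the call ends. Hoxa5 and Hoxa2 passed in that test too. When each array was left out in turn, the 3 genes kept their calls, and the largest adjusted p was 0.000275 for Hoxa5, 0.000752 for Hoxa2 and 0.0463 for Hoxb3.

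Start-site sequence is shown for Hoxa2, of the 3 genes that rose the only one matched in the RefSeq promoter table (GRCr8), and for Hoxa4, a nearby gene of cluster A that did not pass, because the cofactors described below bind known short sites. In the 250 bases before the annotated start, 2 motifs were searched on both strands: TGACAG, the core site of Meis proteins, and TGATNNAT, the site of Hox-Pbx pairs. Of 33469 such windows of all genes, 15.8% held TGACAG and 7.96% held TGATNNAT. Promoter windows matched for 11 of the 22 Hox genes, of which 2 held TGACAG and 1 held TGATNNAT. Capitals mark the motif in each stretch of 30 bases, written 5′ to 3′ on the gene's strand.
Hoxa2, TGACAG, chr4:82595722-82595751, minus strand: gaagcaatcatgTGACAGccaattcggtcc
Hoxa2, TGATNNAT read from the opposite strand, chr4:82595788-82595817, minus strand: gacttttttggATCAATCAaacagacagtg
Hoxa4, TGACAG, chr4:82622416-82622445, minus strand: ggggcaggcgttTGACAGcggggggagggg
The motifs began 47 and 114 bases before the annotated start of Hoxa2 and 131 bases before that of Hoxa4. Hoxa2 held both motifs and Hoxa4 held 1. The 9 other matched Hox windows held neither motif, which says only that these letters are not in those windows. A match is a description of the sequence and not evidence of binding.

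The level of each probe set was set against the quartiles of its own array over all 29214 probe sets. Array medians were 5.05 to 5.13, lower quartiles 3.37 to 3.52 and upper quartiles 6.83 to 6.92. A probe set's brightness depends on its probes as well as on its transcript, so a band describes the probe set and does not rank transcripts. No background level was given for these values, so the dim bands carry no statement that a gene is on or off.

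Of the 22 Hox genes, 6 lay above the array median on all 6 arrays, which is 27.3% against 55.4% of all genes. They were Hoxd1, Hoxa2, Hoxb3, Hoxb4, Hoxa5 and Hoxb7, all of paralogue groups 1 to 7. By class they were 3 of 5 anterior, 3 of 9 central and 0 of 8 posterior genes. By cluster they were 2 of 5 in A, 3 of 7 in B, 0 of 4 in C and 1 of 6 in D. No Hox gene lay above the upper quartile on all 6 arrays. With medians taken over the named genes, which were 5.81 to 5.89, the count fell from 6 to 3, Hoxb3, Hoxb4 and Hoxd1.

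The 3 remaining genes of that band did not pass the test. Hoxb4, known for expanding blood stem cells when overexpressed, read 6.30, 6.25 and 6.33 in the arrays labelled undifferentiated and 6.54, 6.58 and 6.53 in those labelled differentiated. Its groups did not overlap, and their SDs were 0.04 and 0.03 (n = 3). The difference of 0.25 ± 0.10 (SE) had a limma adjusted p = 0.0849, and 0.015 without moderation, where it passed.

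Hoxb7, a central gene of the same cluster, read 5.29, 5.26 and 5.28 in the arrays labelled undifferentiated and 5.38, 5.41 and 5.21 in those labelled differentiated. The groups overlapped, and the difference of 0.05 had a 95% confidence interval of -0.22 to 0.32. Hoxd1, the sole member of paralogue group 1 measured and a gene known from pain-sensing neurons, read 6.26, 6.41 and 6.20, then 6.05, 6.18 and 6.27. Its groups overlapped as well, at -0.13 with an interval of -0.38 to 0.13. For both genes a change of the size measured for Hoxa2 lay outside the interval. Hoxb7 lay close to the array median. As no background level was given, both intervals describe the probe sets and may not bound the change in transcript.

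**Figure D2:**
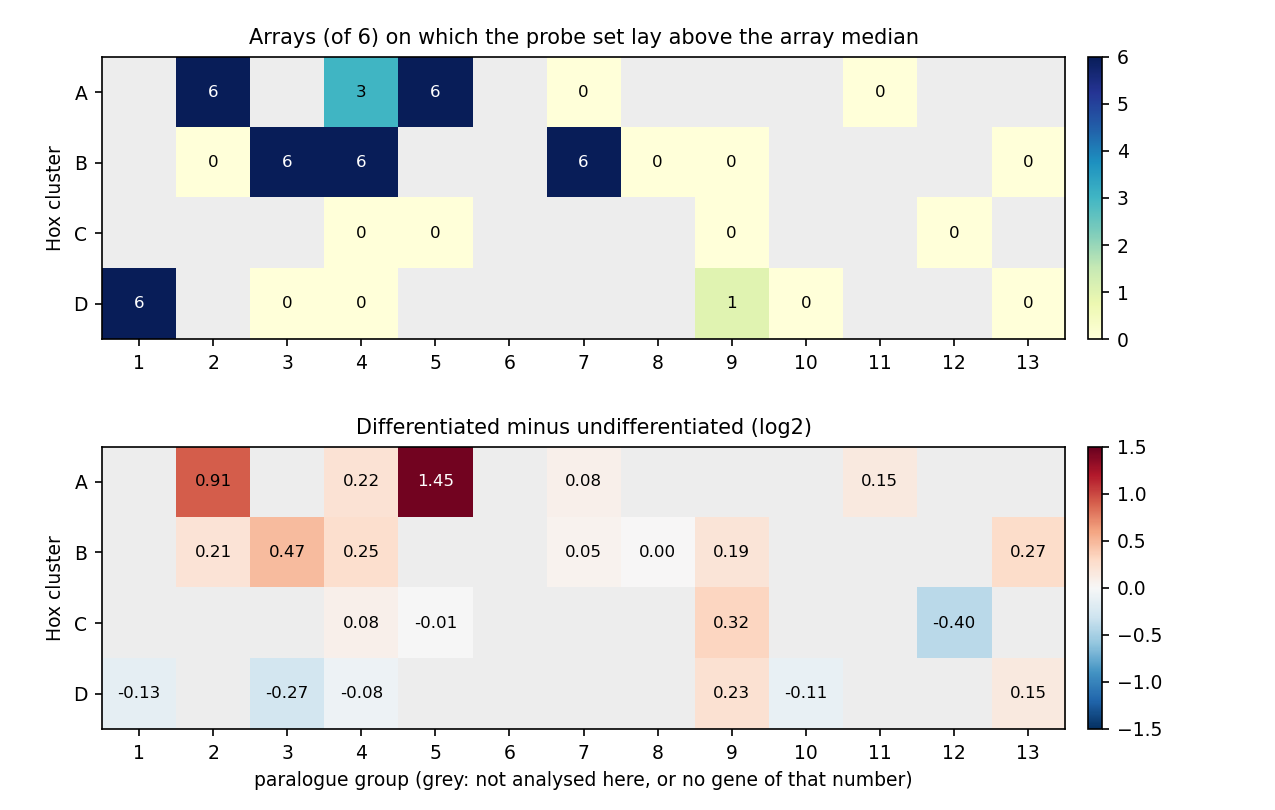
Hox genes by cluster (rows) and paralogue group (columns). The upper grid gives the number of the 6 arrays on which the probe set lay above the array median, and the lower grid gives the log2 difference, labelled differentiated minus labelled undifferentiated. Genes at 6 of 6 arrays sit in paralogue groups 1 to 7, and the largest differences are those of Hoxa5 at 1.45 and Hoxa2 at 0.91.

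Hoxa4 and Hoxd9 lay on both sides of the array median. Hoxa4, a central gene between Hoxa2 and Hoxa5 in cluster A, was above it on 3 arrays and differed by 0.22 ± 0.15 (SE, limma adjusted p = 0.331). Its interval of -0.12 to 0.57 lay below that of Hoxa5. The difference between these 2 changes was not tested, and the interval of Hoxa4 may not bound the change in its transcript. The span of Hoxa4 also overlaps that of Hoxa3. Hoxd9, a posterior gene, was above the median on 1 array. It read 4.96, 5.0 and 4.84, then 5.39, 5.10 and 5.01, so its groups did not overlap, and it differed by 0.23 (adjusted p = 0.263).

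A further 6 genes lay between the lower quartile and the median on all 6 arrays, namely Hoxb2, Hoxd3, Hoxd4, Hoxa7, Hoxb8 and Hoxd13. Their differences ran from -0.27 for Hoxd3 to 0.21 for Hoxb2, and none passed. Hoxd3, which acts in the neck vertebrae, read 4.07, 4.10 and 4.37 in the arrays labelled undifferentiated and 3.81, 3.90 and 4.04 in those labelled differentiated. It was the only Hox gene whose groups did not overlap in the downward direction, with a limma adjusted p = 0.221.

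The other 8 lay on both sides of the lower quartile: Hoxc4, Hoxc5, Hoxb9, Hoxc9, Hoxd10, Hoxa11, Hoxc12 and Hoxb13. They include all 4 measured genes of cluster C, and 6 of them are posterior genes, which pattern the trunk, limbs and tail. Their differences ran from -0.40 for Hoxc12 to 0.32 for Hoxc9, and none passed. Hoxa11, which shapes the forelimb and uterus, read 3.41, 3.38 and 3.44 in the arrays labelled undifferentiated and 3.90, 2.91 and 3.89 in those labelled differentiated. Its difference depended on single arrays: it was 0.15 with all 6 (limma adjusted p = 0.693), -0.01 without differentiated replicate 1 or 3, and 0.48 without differentiated replicate 2 (limma adjusted p = 0.0355), where it passed.

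**Figure D3:**
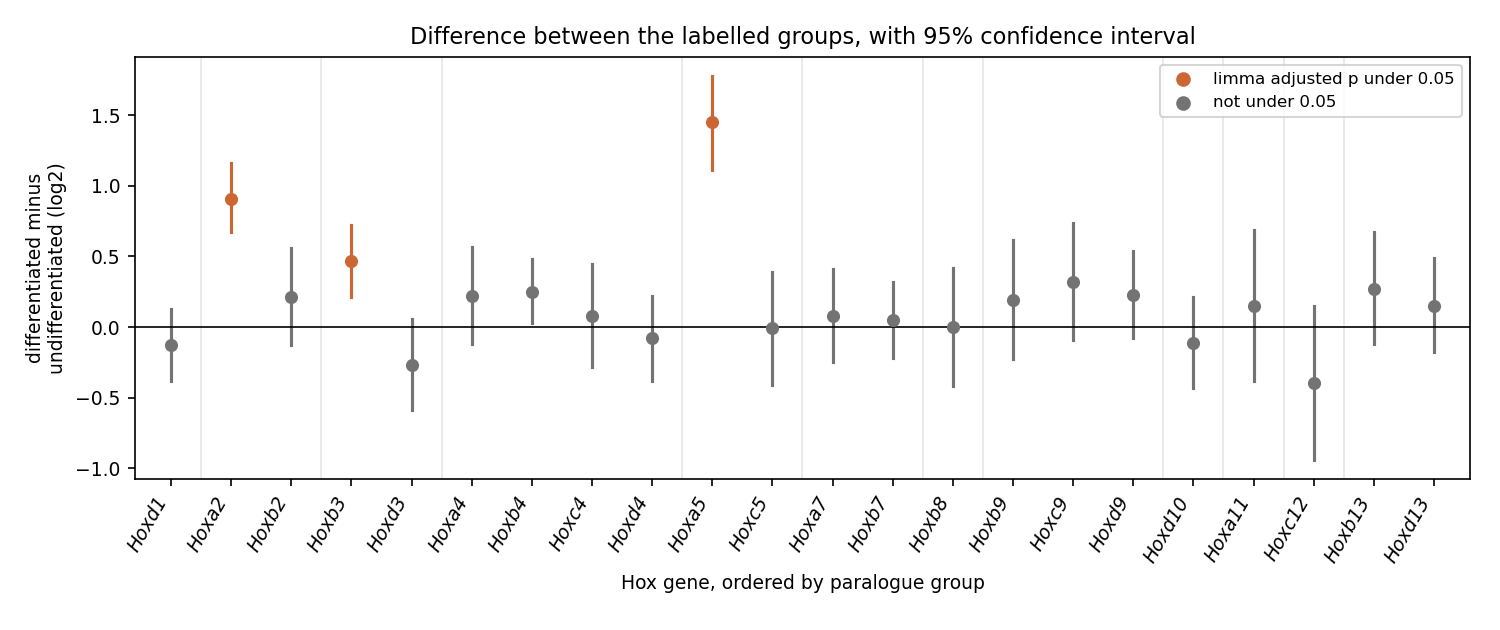
Log2 difference, labelled differentiated minus labelled undifferentiated (vertical axis), for each of the 22 Hox genes ordered by paralogue group. Points are limma estimates and bars their 95% confidence intervals. The intervals of Hoxa2, Hoxb3, Hoxb4 and Hoxa5 lie above 0, and those of the other genes span it.

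Over the 22 genes, groups failed to overlap upward in 5, Hoxa2, Hoxa5, Hoxb3, Hoxb4 and Hoxd9, and downward in 1. Over all genes 22.5% did so upward and 19.8% downward, 42.3% together. All 5 genes of cluster A and all 7 of cluster B had a difference at or above 0, with medians of 0.22 and 0.21. Over all genes, 8361 of 14506 had a difference above 0. Cluster C had a median of 0.04 and cluster D of -0.10. By class the median was 0.21 for the anterior genes, 0.08 for the central and 0.17 for the posterior. The sign of single small differences was not settled: Hoxb8, at 0.00, was -0.05 with quantile normalization and -0.03 with median centring. When single arrays were left out, the lowest differences of Hoxa7, Hoxa11, Hoxb8 and Hoxb9 were -0.03, -0.01, -0.18 and -0.03. The signs in clusters A and B are therefore not settled for these genes.

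The calls lay in the brighter band. Of the 6 Hox genes above the array median on all 6 arrays 3 rose, against 20.8% of all 8042 genes in that band that rose and 21.4% that fell. Of the 16 others 0 rose by limma's test, against 7.02% of the 6464 other genes. At an unadjusted p under 0.05 in limma, the counts were 0 of 16 and 20.7% of the 6464. The median within-group SD was 0.10 for the 6 brighter Hox genes and 0.20 for the 16 others. The same change is therefore harder to detect in the dimmer Hox genes than in the brighter ones. The median within-group SD of the 6464 other genes was 0.20 as well. The reason for the lower share among the 16 was not tested.

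Paralogues of the same number were set side by side. In group 5, Hoxa5 differed by 1.45 and Hoxc5 by -0.01, with an interval of -0.41 to 0.39. In group 2, Hoxa2 differed by 0.91 and Hoxb2 by 0.21, with an interval of -0.13 to 0.56. In group 3, Hoxb3 differed by 0.47 and Hoxd3 by -0.27, with an interval of -0.59 to 0.06. In group 4, with a gene of each cluster, the differences were 0.22, 0.25, 0.08 and -0.08 for Hoxa4, Hoxb4, Hoxc4 and Hoxd4. Within groups 2, 3 and 5 the interval of the paralogue that did not pass lay below that of the one that did. Those that did not pass were dim: Hoxb2 and Hoxd3 lay below the array median on all 6 arrays. Hoxc5 lay on both sides of the lower quartile, and its span overlaps that of Hoxc6. As no background level was given, these intervals describe the probe sets and may not bound the change in transcript. The differences between paralogues were not tested.

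Among the TALE cofactors, which bind DNA beside Hox proteins, 2 of 7 measured genes rose (28.6%, against 14.7% of all genes) and 0 fell (against 14.9%), with a median difference of -0.16. Meis2 rose from a mean of 4.54 to 5.58, by 1.04 ± 0.15 (SE, limma adjusted p = 0.000251). Pbx3 rose from 5.53 to 6.21, by 0.68 ± 0.13 (adjusted p = 0.00186). Pknox1 differed by 0.29 (adjusted p = 0.0908). Meis1 and Pbx2 differed by -0.22 each and did not pass (adjusted p = 0.31 and 0.122). Without differentiated replicate 3, Meis3 was also called, as lower, which raised the falls from 0 to 1.

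Of 25 measured Polycomb and trithorax genes, which keep Hox clusters shut or open, 2 rose and 4 fell, with a median that rounds to 0. These shares, 8% and 16%, stand beside 14.7% and 14.9% of all genes, so the share that fell was near the general one. Ezh2, the methyltransferase of Polycomb complex PRC2, rose by 0.86 ± 0.13 (SE, limma adjusted p = 0.000433), and its relative Ezh1 fell by 0.37 (adjusted p = 0.026). Pcgf1, a subunit of the variant PRC1 complexes, fell by 1.22 ± 0.14 (adjusted p = 5.29e-05), and Cbx7, which reads the Polycomb mark, by 0.64 (adjusted p = 0.00187). Fewer calls were made without undifferentiated replicate 1 (2 rose and 2 fell), and without undifferentiated replicate 3 or differentiated replicate 3 (1 rose and 3 fell). Ezh1 was named after its value was seen.

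Of 16 measured retinoic acid pathway genes 3 rose and 2 fell, with a median difference of 0.01. The shares of 18.8% and 12.5% were near those of all genes, 14.7% and 14.9%. The receptor gene Rarg rose from 6.48 to 7.41, by 0.93 ± 0.10 (SE, limma adjusted p = 4.4e-05), and Rxrg rose by 0.72 ± 0.15 (adjusted p = 0.00321). Rbp4, the carrier of retinol in blood, fell by 1.5 ± 0.23 (adjusted p = 0.000495). Its call ended in the test without moderation (adjusted p = 0.0549). The other calls of this list were Crabp2, at 1.04 (limma adjusted p = 0.0035), and Dhrs3, at -0.60 (limma adjusted p = 0.0162). The enzymes that make retinoic acid were not called: Aldh1a1, Aldh1a2 and Aldh1a3 differed by -0.01, 0.03 and 0.17, named after their values were seen. Falls numbered 3 without undifferentiated replicate 1 and 1 without undifferentiated replicate 3.

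Of 17 other homeobox and regional genes 2 rose and 1 fell, with a median of 0.12. The shares were 11.8% and 5.88%, against 14.7% and 14.9% of all genes. Dlx1, a patterning gene of the pharyngeal arches, fell by 1.22 ± 0.13 (SE, limma adjusted p = 3.68e-05). Egr2, which activates Hox genes in the hindbrain, rose by 0.61 ± 0.18 (adjusted p = 0.0216). That call ended without undifferentiated replicate 2 (0.0827), undifferentiated replicate 3 (0.0716) and differentiated replicate 3 (0.0816), and in the test without moderation (0.133). Gmnn, geminin, a replication inhibitor that also binds Hox proteins, rose by 0.35 ± 0.12 (adjusted p = 0.0493). It lost its call without undifferentiated replicate 1 (0.115) or 3 (0.177), without differentiated replicate 1 (0.0874) or 2 (0.155), with median centring (0.0681), without the variance trend (0.0669) and without moderation (0.125). No rise of this list was called without undifferentiated replicate 3, and 1 was called without differentiated replicate 2 or 3.

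**Figure D4:**
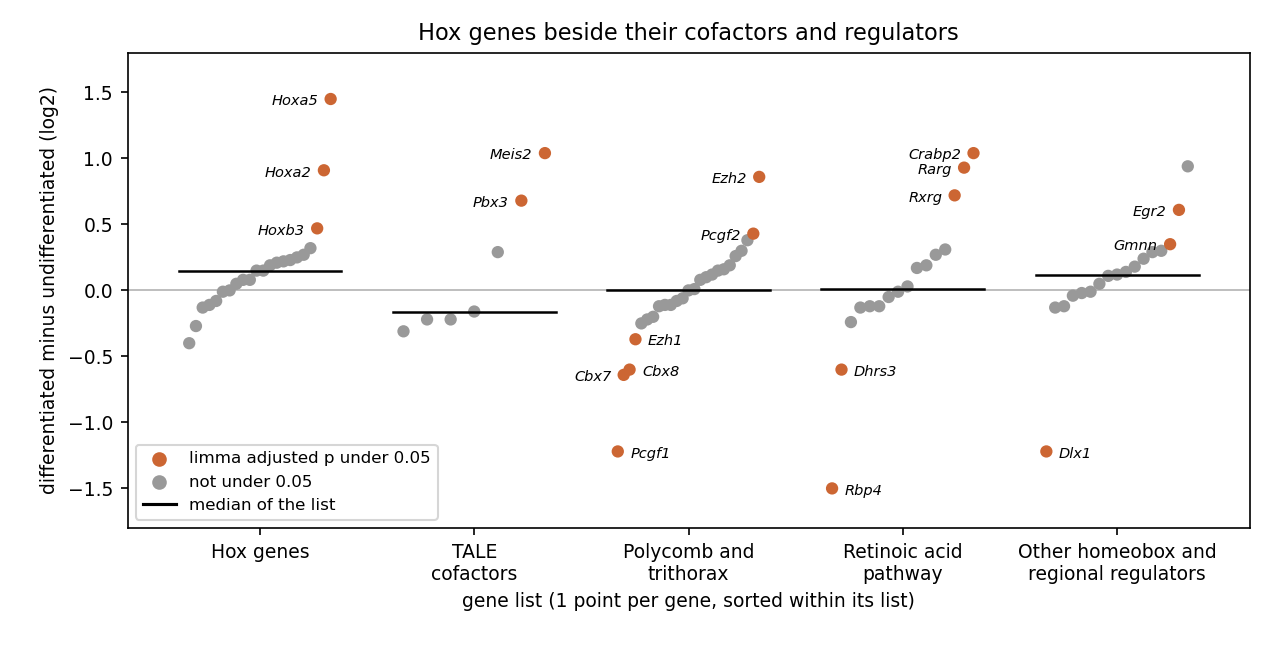
Log2 difference, labelled differentiated minus labelled undifferentiated (vertical axis), of the Hox genes and of 4 lists of cofactors and regulators. Each point is a gene, coloured where the limma adjusted p was under 0.05, and black lines are list medians. The medians run from -0.16 for the TALE cofactors to 0.15 for the Hox genes, and the genes that passed lie on both sides of 0 in 3 of the lists.

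Summed levels of glomus, mesenchymal and smooth muscle markers did not overlap between groups, and those of Schwann, endothelial and macrophage markers did. These linear sums weigh the brightest members most, and sums that overlap can hold members that changed in opposite directions. All 11 measured glomus cell markers of 12 listed fell, and their summed linear level (2 to the power of the deposited values) was 27600 to 31400 in the arrays labelled undifferentiated and 3650 to 5400 in those labelled differentiated. All 10 mesenchymal and fibroblast markers rose, from a summed 13300 to 17900 up to 32300 to 33400. Smooth muscle markers summed to 864 to 940 and 1550 to 1970 (5 of 5 measured, 2 rose). Acta2 and Tagln rose by 0.97 and 1.45, while Cnn1, Myh11 and Des, at 0.53, -0.12 and 0.14, did not pass. Schwann and glial markers summed to 1120 to 1530 and 1100 to 1950 (6 of 8 measured, 2 rose). Endothelial markers summed to 752 to 931 and 885 to 1070 (7 of 7 measured, 2 rose and 1 fell), and macrophage markers to 1580 to 2290 and 1740 to 3130 (7 of 7 measured, 2 rose and 3 fell). Of all genes 14.7% rose and 14.9% fell, and of those above the array median on all 6 arrays 20.8% rose and 21.4% fell. No measured marker of any list lay below the lower quartile on all 6 arrays. The part of these shifts in the rises of Hoxa5, Hoxa2 and Hoxb3 was not tested, and in this bulk RNA a different number of cells of a type and a different amount of RNA per cell cannot be told apart.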

How the data were processed

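The deposited log2 values were made by the authors, 1 per probe set and array, and were used unchanged. The log base was inferred here from their range, as no label gives it. Background correction, normalization and software: not given in the sources used here. The platform's probe table named the probe sets: of 29214, 15310 carried exactly 1 symbol, which gave 14506 genes. A gene with several kept the probe set of highest mean. All 22 Hox genes matched the GRCr8 table by gene ID, with 0 symbols changed.

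Sample titles gave the groups and replicate numbers. Whether arrays came from separate cultures or animals is not labelled, so the p-values reflect the spread of these arrays, which may be technical, and 3 arrays per group limit the precision. limma 3.58.1 in R 4.3.3 was fitted once to all 6 arrays (eBayes with a mean-variance trend, checked on simulated data), two-sided, with Benjamini-Hochberg adjustment over all genes at 0.05. matplotlib 3.10.9 drew the figures.

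The Hox genes and the lists were chosen with earlier results of these data known. All 6 values were given for Hox genes past the threshold or above the array median on all 6 arrays; the 3 members with the smallest p were named from each of the 4 neighbour lists, and other genes were singled out after their values were seen. Alternatives were other probe set choices, normalizations, variance models, thresholds, a filter on dim genes, a replicate block and leaving out each array.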

Additional observations from a re-analysis of the deposited data

How the results depend on the processing

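Hoxa5, Hoxa2 and Hoxb3 were the genes called under every alternative that kept limma's moderated test, with Hoxa11 added without differentiated replicate 2, so leaving out single arrays gave 3 to 4 Hox calls. The unmoderated test called 2740 of all genes in place of 4286, and in it Hoxb4 took the place of Hoxb3. Leaving out single arrays gave 3545 to 4030 calls over all genes and a Hox median of 0.10 to 0.19. Medians over the named genes left 3 Hox genes above them on all 6 arrays, in place of 6. With dim genes left out, 10 of the 22 Hox genes were tested, and their median was 0.23. With the replicate number as a block the Hox median was 0.15, 4430 genes were called, and the same 3 Hox genes passed. The deviations of same-numbered arrays correlated at 0.12, 0.12 and -0.00. For undifferentiated replicates 1 and 2 the same-numbered array correlated best among those labelled differentiated, and for replicate 3 it did not. The correlations were small, and the numbers were not taken to pair the arrays. Differences near 0 changed sign: Hoxb8 was -0.05 with quantile normalization and -0.03 with median centring. When each array was left out, Hoxb8 ran from -0.18 to 0.12, Hoxc4 from -0.03 to 0.19, Hoxc5 from -0.14 to 0.16, Hoxa11 from -0.01 to 0.48, Hoxd4 from -0.15 to 0.00, Hoxa7 from -0.03 to 0.16 and Hoxb9 from -0.03 to 0.32. The alternatives on the named neighbour genes were chosen after seeing the data. Signal over background is unknown, which limits what can be said of the 16 dimmer Hox genes.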
